A study of Homo sapiens with 8 samples.

Results

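This report describes 10 surface and endosomal receptors of monocytes and macrophages in THP-1 cells and in a decitabine-resistant line derived from them: CD14, CD36, CD68, CD163, MSR1, MRC1, MARCO, SCARB1, CSF1R and CSF2RA. They were chosen by gene symbol among the 60664 genes of the deposited expression table, and each symbol matched 1 gene. A repeat family that carries the name MSR1 was not used. RNA-seq was made from 4 groups with 2 biological replicates each, which gave 8 libraries. The parental DMSO group was THP-1, a human acute monocytic leukemia line labelled WT, kept with the solvent DMSO for 6 days. The parental DAC group was the same line with 1 µM decitabine (DAC) for 6 days, a nucleoside drug that replicating cells place in their DNA, where it traps DNA methyltransferase and so depletes methylation. The resistant DMSO and resistant DAC groups were DAC-resistant THP-1 cells with the same 2 treatments. The resistant line had been selected by repeated pulses of DAC and then kept without the drug before the experiment, so all 4 groups share 1 parental cell line and the resistant groups carry a history of DAC. Levels are in FPKM, that is, read numbers scaled by gene length and by the total of the library.

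The receptors do different work in the same cell lineage. CD14 is the co-receptor that passes lipopolysaccharide to TLR4 and MD-2, and it is the usual surface marker of classical monocytes. The scavenger receptors CD36, MSR1 (also called SR-A1), MARCO and SCARB1 bind modified lipoproteins and other polyanionic or lipid ligands, with SCARB1 serving mainly as the receptor for high-density lipoprotein. CD163 takes up haptoglobin-hemoglobin complexes, MRC1 is the mannose receptor, and CD68 is a heavily glycosylated protein that sits mostly in lysosomes and endosomes. CSF1R is the tyrosine kinase receptor for M-CSF, on which macrophage survival and differentiation depend, and CSF2RA is the ligand-binding alpha chain of the GM-CSF receptor.

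The start sites of these genes are shown because DAC acts on CG pairs and because several of the receptors moved together. The RefSeq promoter table (GRCh38.p14) held 13 start sites for 7 of the receptors, of which 6 belonged to CD36. MSR1, MRC1 and SCARB1 were not matched. In the 250 bases before each start there were 1 to 6 CG pairs, beside a median of 11 over 35115 start sites in the table, of which 41.1% had at most 6. The stretches below are the parts of these windows that no annotated exon covers, written 5′ to 3′ on the gene's strand with each CG pair in capitals. CD14 lies at chr5:140633293-140633425 (minus strand) and CSF1R at chr5:150086608-150086804 (minus, the inner of its starts). CD36 lies at chr7:80601957-80602149 (plus, the first of its 6 starts). These stretches of CD14, CSF1R and CD36 lie inside the annotated spans of their genes. CD163 lies at chr12:7503894-7504027 (minus) and CSF2RA at chrX:1268564-1268799 (plus), both just before the annotated span of the gene.
CD14: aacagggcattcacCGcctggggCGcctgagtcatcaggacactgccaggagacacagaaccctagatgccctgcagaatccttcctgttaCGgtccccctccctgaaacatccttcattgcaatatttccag
CSF1R: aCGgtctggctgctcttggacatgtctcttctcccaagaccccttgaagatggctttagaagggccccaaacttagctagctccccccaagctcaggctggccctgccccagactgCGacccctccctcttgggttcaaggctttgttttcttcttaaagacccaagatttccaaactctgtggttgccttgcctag
CD36: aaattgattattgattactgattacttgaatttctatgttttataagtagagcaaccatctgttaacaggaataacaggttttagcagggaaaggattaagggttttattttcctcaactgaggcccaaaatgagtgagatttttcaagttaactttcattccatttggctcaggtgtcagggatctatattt
CD163: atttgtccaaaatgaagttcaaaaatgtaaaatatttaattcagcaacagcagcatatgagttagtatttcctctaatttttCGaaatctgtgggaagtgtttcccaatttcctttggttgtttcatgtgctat
CSF2RA: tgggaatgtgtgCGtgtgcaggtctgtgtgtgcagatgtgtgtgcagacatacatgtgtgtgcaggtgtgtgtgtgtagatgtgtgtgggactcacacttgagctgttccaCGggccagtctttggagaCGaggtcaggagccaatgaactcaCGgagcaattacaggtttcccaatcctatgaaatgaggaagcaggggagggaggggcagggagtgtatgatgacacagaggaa

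The printed stretch of CD14 held 3 CG pairs, that of CSF1R 2, that of CD36 0, that of CD163 1 and that of CSF2RA 4. Over the whole windows, CD14 had 5 CG pairs, CSF1R 2 at the inner start and 6 at the outer one, CD36 1 or 2 at each start, CD68 1, CD163 2, MARCO 5 and CSF2RA 4. The letters GAGGAA, the core of many PU.1 sites, were present on either strand in 8 of the 13 windows and in 6 of the 7 genes, against 23.6% of all windows. The inner CSF1R window held them at 20 to 15 and again at 14 to 9 bases before the start, in a part that an annotated exon covers and that is not printed. TTNNGNAA, a C/EBP pattern, was present in 8 windows (33.2% of all windows), TGANTCA, an AP-1 pattern, in 4 (6.57%), and the GC box GGGCGG in 1 (42.6%). No overlap between these motifs was removed, some of the CD36 windows overlap each other, and a match says nothing of binding.

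The 8 libraries held 28641842 to 33345139 reads on genes, recovered from the steps of the deposited values. A gene was tested if it reached 1 FPKM in at least 2 libraries, which 14899 genes did. A gene passed at an adjusted p under 0.05, and a narrower call asked for a change of 1 or more on the log2 scale in either direction together with an unadjusted p no higher than 0.01. Fold changes are differences of log2(FPKM + 1) fitted with limma, with Benjamini-Hochberg adjustment over all tested genes, a scale that compresses the changes of genes near or under 1 FPKM. All 14 monocyte markers on a list (such as LYZ, ITGAM, SPI1 and TYROBP) passed the filter, with a summed level of 989.5 to 1115 FPKM in each library. Single markers moved with the groups: 9 rose and 4 fell with DAC in parental cells (33.6% and 24.1% of all tested genes), none passed in resistant cells (11.2% of all tested genes), and 2 were higher and 9 lower in resistant than in parental DMSO cells (31.3% and 26.2%). In parental cells with DAC, CD93 (3.48, which entered the test only through that group), LYZ (1.91) and MPO (1.42) rose and CTSG fell by 1.02, while in resistant DMSO cells TYROBP (-1.44), ITGAM (-1.40) and LYZ (-1.31) were lower and CTSG (1.39) was higher. The 12 markers of other lineages summed to 17.5 to 36.06 FPKM, mostly from NCAM1. In both parental DAC libraries 11 of these 12 were above 0, against 5 or 6 in the other libraries, while CD3D, CD2 and GP9 were at 0 in parental DMSO cells. ITGA2B rose from 0.527 to 3.09 FPKM with DAC in parental cells, and it entered the test only through that group. The part of all these markers in the results was not tested.

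Of the 10 receptors, 6 passed the filter and 4 did not. CSF1R, CSF2RA, SCARB1, CD36 and CD14 were above 1 FPKM in both parental DMSO libraries. CD68 reached 1 FPKM in both parental DAC libraries and in 1 resistant DMSO library, so it entered the test only with the parental DAC libraries, in which it was high. CD163, MSR1 and MARCO stayed below 1 FPKM in all 8 libraries, and MRC1 was at 0 in 6 of them. In parental DMSO cells, CSF1R (14.2 FPKM) and CSF2RA (14.0 FPKM) were above 92.5% and 92.4% of the 39592 genes with any read, and CD14 (1.52 FPKM) was above 71.1%. In parental DAC cells CD14 stood at 19.9 FPKM, above 94.4% of these genes.

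**Figure D1:**
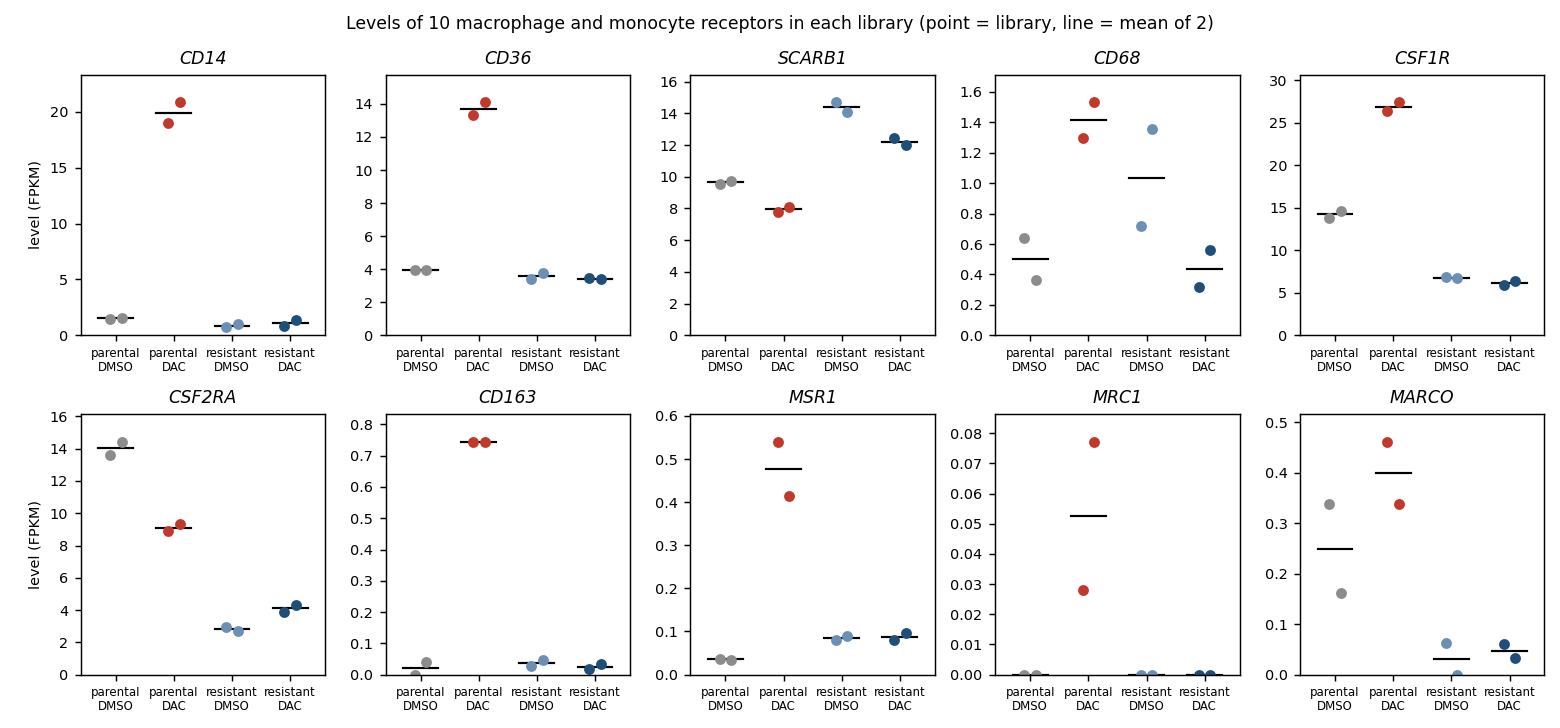
Level of each of the 10 receptors in FPKM (y axis, from 0, with a scale of its own in each panel) in the 4 groups (x axis), where each point is 1 library and each line the mean of 2. CD14, CD36, CD163, MSR1 and CSF1R are highest in both parental DAC libraries, and CSF2RA is highest in both parental DMSO libraries.

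With DAC in parental cells, all 6 tested receptors passed, 4 higher and 2 lower. Of all tested genes 57.7% passed, 33.6% higher and 24.1% lower. CD14 and CD36 also met the narrower call, which 9.31% of tested genes met. The median log2 fold change of the 6 was 0.78, against 0.06 over all genes. CD14, CD36, CSF1R and CD68 rose, and SCARB1 and CSF2RA fell. CD68 entered the test only with the parental DAC libraries, in which it is high. Without CD68, 5 of 5 tested receptors passed, and the median of 0.78 includes CD68. In bulk RNA, fewer cells of a type and less RNA per cell cannot be told apart.

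CD14 (ENSG00000170458, chr5:140631728-140633700, minus strand, hg38) stood at 1.45 and 1.58 FPKM in the parental DMSO libraries and at 19.0 and 20.8 FPKM in the parental DAC libraries. The groups lay far apart, and the reads behind them came to 155 in DMSO and 1804 in DAC. The mean level rose 13.1-fold, a log2 fold change of 3.05 ± 0.13 (SE, n = 2 per group, limma adjusted p = 5.39e-06). It ranked 93 from the highest among the 14899 tested genes on this scale. In resistant cells CD14 was 0.75 and 0.99 FPKM with DMSO and 0.84 and 1.37 FPKM with DAC. These ranges overlapped, and the log2 fold change of 0.16 (95% interval -0.16 to 0.48, limma adjusted p = 0.509) did not pass. The test of the difference between the DAC effects gave -2.89 ± 0.19 for CD14 (SE, limma adjusted p = 5.2e-05), with the smaller effect in resistant cells.

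CD36 (ENSG00000135218, chr7:80369575-80679277, plus strand) showed the same contrast between the lines. Its level was 3.93 and 3.92 FPKM in parental DMSO cells and 13.4 and 14.1 FPKM in parental DAC cells. It rose 3.5-fold there, by 1.58 ± 0.06 on the log2 scale (SE, n = 2 per group, limma adjusted p = 2.96e-06). In resistant cells CD36 was 3.38 and 3.79 FPKM with DMSO and 3.47 and 3.40 FPKM with DAC, so all 4 values lay below the parental DMSO libraries and overlapped each other. The DAC effect in resistant cells was -0.05 (95% interval -0.19 to 0.10, limma adjusted p = 0.676), and the DAC effects differed by -1.63 ± 0.08 (SE, limma adjusted p = 2e-05).

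CSF1R (ENSG00000182578, chr5:150053291-150113372, minus strand) had the highest level of the 10 receptors in parental DAC cells. It was 13.8 and 14.6 FPKM in parental DMSO cells and 26.3 and 27.4 FPKM with DAC. The mean rose 1.89-fold, a log2 fold change of 0.87 ± 0.05 (SE, n = 2 per group, limma adjusted p = 1.42e-05), which is short of the narrower call. In resistant cells it was 6.83 and 6.72 FPKM with DMSO and 5.95 and 6.36 FPKM with DAC. Both DAC libraries were the lower ones, but the log2 fold change of -0.12 (95% interval -0.23 to -0.01, limma adjusted p = 0.167) did not pass over all genes. The DAC effects differed by -0.99 ± 0.07 (SE, limma adjusted p = 6.16e-05).

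CSF2RA moved the other way. This gene (ENSG00000198223, chrX:1268800-1310381, plus strand) lies in the pseudoautosomal region, where the X and Y copies have the same sequence, so the reads may come from either copy. Its level was 13.6 and 14.4 FPKM in parental DMSO cells and 8.89 and 9.31 FPKM in parental DAC cells. It fell by 0.57 ± 0.06 on the log2 scale (SE, n = 2 per group, limma adjusted p = 0.000339). In resistant cells it was 2.92 and 2.71 FPKM with DMSO and 3.89 and 4.32 FPKM with DAC. Both DAC libraries lay above both DMSO libraries there, and CSF2RA rose by 0.42 ± 0.06 (SE, n = 2 per group, limma adjusted p = 0.0116). On leaving out single libraries the change stayed between 0.36 and 0.48, but the call was lost without resistant DMSO replicate 2 (0.38, adjusted p = 0.0617) or resistant DAC replicate 2 (0.36, adjusted p = 0.0656). It was also lost with only the 4 resistant libraries in the fit (0.42, adjusted p = 0.0878). The DAC effects in the 2 lines differed by 0.99 ± 0.09 (SE, limma adjusted p = 0.000207).

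SCARB1 (ENSG00000073060, chr12:124776856-124882668, minus strand) was lower with DAC in both lines. It went from 9.54 and 9.76 FPKM to 7.80 and 8.07 FPKM in parental cells, and from 14.7 and 14.1 FPKM to 12.4 and 12.01 FPKM in resistant cells. No DAC library overlapped a DMSO library of its line. The log2 fold changes were -0.25 ± 0.04 (SE, limma adjusted p = 0.00194) in parental cells and -0.22 ± 0.04 (SE, limma adjusted p = 0.0213) in resistant cells, with n = 2 per group. The difference of the DAC effects was 0.03 (95% interval -0.11 to 0.17, limma adjusted p = 0.674). In resistant cells the call was lost on leaving out any 1 of the 4 resistant libraries. The log2 fold changes were -0.19 and -0.25 without resistant DMSO replicates 1 and 2 and -0.24 and -0.20 without resistant DAC replicates 1 and 2. The call was also lost after rescaling to TPM (-0.20, adjusted p = 0.0542) and with only the 4 resistant libraries in the fit (-0.22, adjusted p = 0.0783).

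CD68 (ENSG00000129226, chr17:7579491-7582111, plus strand) was near the limit of the test. Its level was 0.641 and 0.366 FPKM in parental DMSO cells and 1.29 and 1.53 FPKM in parental DAC cells. In resistant cells it was 0.718 and 1.35 FPKM with DMSO and 0.319 and 0.559 FPKM with DAC, so that the order of the treatments was opposite in the lines. It rose in parental cells by 0.69 ± 0.19 (SE, n = 2 per group, limma adjusted p = 0.0185), and the change of -0.49 in resistant cells (95% interval -0.94 to -0.04, limma adjusted p = 0.155) did not pass. On leaving out single libraries the latter ran from -0.26 (without resistant DMSO replicate 2) to -0.72 (without resistant DMSO replicate 1) and did not pass. The DAC effects differed by -1.18 ± 0.26 (SE, limma adjusted p = 0.0105), which met the narrower call. CD68 entered the test only with the parental DAC libraries, in which it is high. Its rise in parental cells and this difference are therefore a description only. The rise in parental cells was lost without parental DMSO replicate 2 (0.55, adjusted p = 0.0952), without parental DAC replicate 1 (0.76, adjusted p = 0.0512) or 2 (0.62, adjusted p = 0.09), and with no filter (adjusted p = 0.0568).

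The CD68 values are also uncertain because of its neighbours. The annotation places 81.6% of its exon bases in exons of a lncRNA on the same strand (ENSG00000264772) and 6.8% in those of an antisense lncRNA (ENSG00000233223). The lncRNA on the same strand had 24 and 29 reads in parental DMSO cells, 44 and 30 with DAC, 19 and 23 in resistant DMSO cells, and 21 and 15 with DAC. The antisense gene had 30 and 42 reads in parental DMSO cells, 205 and 176 with DAC, 75 and 54 in resistant DMSO cells, and 48 and 87 with DAC. CD68 itself had 22 to 91 reads per library. Whether the counting used the strand is not given in the sources used here, and the overlap of 81.6% does not depend on it. How reads on shared exon bases were handled is not given either. The FPKM of CD68 was scaled by all of its 2163 exon bases. If reads on the shared bases were left out, the level of CD68 and its entry to the test are understated, which was not tested.

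**Figure D2:**
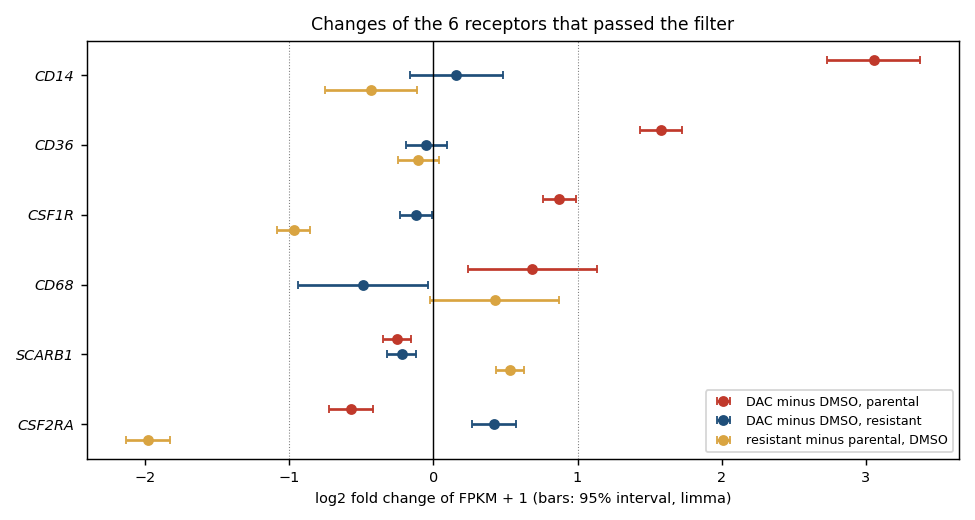
Log2 fold change of FPKM + 1 (x axis) of the 6 receptors that passed the filter, for DAC against DMSO in parental cells (red), DAC against DMSO in resistant cells (blue) and resistant against parental cells in DMSO (yellow), with 95% intervals from limma and dotted lines at a size of 1. CD14 lies at 3.05 in red and 0.16 in blue, and CSF2RA at -1.98 in yellow.

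The 4 receptors below the filter were outside the main test, so their reads are given first, with values from a limma fit without the filter. In that fit, adjusted over all genes with any read, the log2 fold change with DAC in parental cells was 0.78 for CD163 (adjusted p = 0.000197), 0.51 for MSR1 (adjusted p = 0.00152), 0.07 for MRC1 (adjusted p = 0.0764) and 0.17 for MARCO (adjusted p = 0.269). For MRC1 both value and call depended on the setting. It passed with a pseudocount of 0.1 (0.59, adjusted p = 0.0462) and with voom (4.02, adjusted p = 0.00992, a size that depends on the prior count). The value was 0.11 without parental DAC replicate 1 and 0.04 without parental DAC replicate 2. These fits leave 1 library in that group and only values of 0 elsewhere, so their p-values cannot decide and are not given. The difference of the DAC effects was -0.79 for CD163 (adjusted p = 0.00096) and -0.51 for MSR1 (adjusted p = 0.00773). CD163 (ENSG00000177575, chr12:7470811-7503893, minus strand) had 0 and 7 reads in parental DMSO cells and 119 and 119 reads in parental DAC cells. In resistant cells it had 5 and 8 reads with DMSO and 3 and 6 reads with DAC. Both parental DAC libraries, at 0.744 and 0.745 FPKM, stood far above the other 6. Per read of the library, the summed reads were 38.4 times as many with DAC as with DMSO in parental cells (95% interval 18.3 to 96.5) and 0.682 times as many in resistant cells (0.257 to 1.72). The parental ratio rests on 1 DMSO library: without parental DMSO replicate 1 the FPKM ratio was 18.8, and without replicate 2 the DMSO level is 0 and no ratio is given. These intervals and those below are exact, and cover counting error only. A stretch of 38 exon bases is shared with its paralog CD163L1, which is counted as a gene of its own.

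MSR1 (ENSG00000038945) had 17 reads in the parental DMSO libraries together and 205 in the parental DAC libraries. Its levels were 0.0363 and 0.0338 FPKM in parental DMSO cells and 0.540 and 0.415 FPKM with DAC, a ratio of 13.6 (95% interval 8.29 to 23.8). In resistant cells MSR1 was 0.0811 and 0.0894 FPKM with DMSO and 0.0802 and 0.0961 FPKM with DAC. These 4 libraries overlapped between the treatments, with a ratio of 1.03 (0.658 to 1.63), and all lay above both parental DMSO libraries and below both parental DAC libraries. In DMSO the ratio of resistant to parental cells was 2.43 (1.35 to 4.56). In the limma fit without the filter this difference was 0.07 and did not pass (adjusted p = 0.494). It passed in 3 of 15 alternative settings, among them the fit with only the 4 libraries compared (0.07, adjusted p = 0.0241). Over these settings the value ran from 0.063 to 1.226.

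MRC1 (ENSG00000260314, chr10:17809348-17911164, plus strand) had 4 and 11 reads in the parental DAC libraries and 0 reads in the other 6. A count of 0 allows up to 3 reads, which is 0.0181 to 0.0192 FPKM in these 6 libraries, and 4 reads is barely above that limit. MARCO (ENSG00000019169, chr2:118942194-118994660, plus strand) was 0.338 and 0.161 FPKM in parental DMSO cells, 0.461 and 0.337 FPKM in parental DAC cells, 0.0618 and 0 FPKM in resistant DMSO cells, and 0.0611 and 0.0318 FPKM in resistant DAC cells. The parental treatments overlapped, and every resistant library lay below every parental library. In DMSO the resistant cells had 4 reads, all in 1 library, against 32, a ratio of 0.126 (95% interval 0.0323 to 0.355). In the limma fit without the filter this difference was -0.27 and did not pass (adjusted p = 0.093). It ran from -0.17 without parental DMSO replicate 1 to -0.38 without parental DMSO replicate 2. The call was gained in 3 of 15 alternative settings. Among them were the replicate block (-0.27, adjusted p = 0.045) and voom (-3.35, adjusted p = 0.0283), but none of the 3 other scalings.

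With DAC in resistant cells, 2 of the 6 tested receptors passed, SCARB1 lower and CSF2RA higher. Of all tested genes 11.2% passed, 5.88% higher and 5.35% lower. None of the 6 met the narrower call, which 0.235% of tested genes met. By the test of the difference between the DAC effects, 5 of the 6 passed (49.3% of tested genes), 4 of them with a lower effect in resistant cells (28.4% of tested genes) and 1 with a higher one (20.9%). CD14, CD36 and CD68 met the narrower call (10.6% of tested genes). CD68 entered the test only with the parental DAC libraries, and without it 4 of 5 passed by the test of the difference.

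Between resistant and parental cells in DMSO, 4 of the 6 tested receptors passed, SCARB1 higher and CSF2RA, CSF1R and CD14 lower. Of all tested genes 57.5% passed, 31.3% higher and 26.2% lower. This comparison uses the same parental DMSO libraries as the DAC effect in parental cells. CSF2RA had the largest change and was the only member in the narrower call, which 8.73% of tested genes met. Its mean of 2.82 FPKM in resistant cells was 4.98-fold below the 14.0 FPKM of parental cells, a log2 fold change of -1.98 ± 0.06 (SE, n = 2 per group, limma adjusted p = 1.94e-06). It ranked 81 from the lowest among the 14899 tested genes on this scale. CSF1R fell by 0.97 ± 0.05 (SE, limma adjusted p = 9.94e-06), and its mean was 2.1-fold lower.

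SCARB1 was 1.49-fold higher in resistant DMSO cells, with a log2 fold change of 0.53 ± 0.04 (SE, n = 2 per group, limma adjusted p = 6.4e-05). CD36 differed by -0.10 (95% interval -0.25 to 0.04, limma adjusted p = 0.178), which did not pass, but it passed under upper-quartile scaling (-0.18, adjusted p = 0.0396). CD14 passed narrowly, at -0.43 ± 0.13 (SE, limma adjusted p = 0.0297), and passed in 8 of 17 alternative settings, with adjusted p from 0.00977 to 0.137. Its call was lost without parental DMSO replicate 1 (-0.47, adjusted p = 0.0736) or 2 (-0.40, 0.115), without parental DAC replicate 1 (0.0552) or 2 (0.0553), and without resistant DMSO replicate 1 (-0.34, 0.137). CD68 was 0.43 higher and did not pass (limma adjusted p = 0.0941), but passed without resistant DMSO replicate 1 (0.65, adjusted p = 0.0328). The value was 0.20 (adjusted p = 0.426) without resistant DMSO replicate 2 and 0.29 (adjusted p = 0.336) without parental DMSO replicate 2.

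The order of the 4 groups therefore differed among the receptors. CD14, CD36 and CSF1R were highest in parental DAC cells and next in parental DMSO cells, and the resistant groups came last. For CD14 and CD36 the resistant treatments overlapped. CSF2RA was highest in parental DMSO cells, followed by parental DAC, resistant DAC and resistant DMSO cells, with no overlap between neighbours. SCARB1 had nearly the reverse order, with resistant DMSO highest, then resistant DAC, parental DMSO and parental DAC cells, again with no overlap.

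Ratios of levels within a library do not depend on how the library was scaled. CSF1R over CSF2RA was 1.01 and 1.01 in the parental DMSO libraries, 2.96 and 2.94 with DAC, 2.34 and 2.48 in resistant DMSO cells, and 1.53 and 1.47 with DAC. The ratio was thus higher with DAC in parental cells and lower with DAC in resistant cells, with no overlap between treatments in either line. CD36 over SCARB1 was 0.407 ± 0.008 (SD, n = 2) in parental DMSO cells and 1.73 ± 0.02 with DAC, and 0.250 ± 0.027 and 0.281 ± 0.003 in resistant cells. CSF2RB encodes the beta chain that CSF2RA needs for signalling, and it was chosen here after its values were seen. CSF2RB over CSF2RA was 0.820 ± 0.009 (SD, n = 2) in parental DMSO cells, 2.00 ± 0.02 with DAC, 2.82 ± 0.12 in resistant DMSO cells and 1.96 ± 0.04 with DAC. These ratios are given as a description, with no test.

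**Figure D3:**
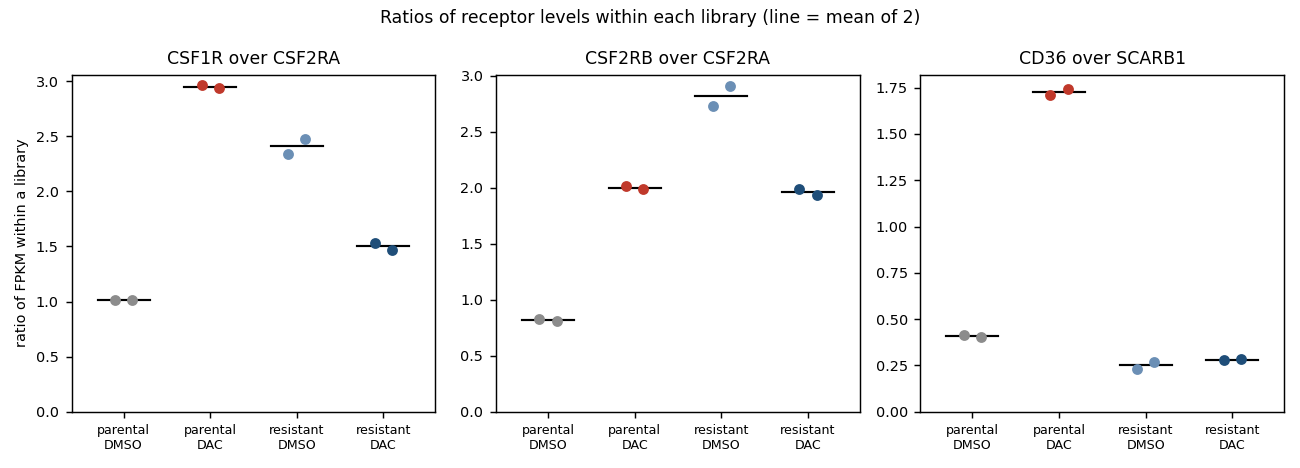
Ratio of FPKM levels within each library (y axis, from 0) in the 4 groups (x axis) for CSF1R over CSF2RA, CSF2RB over CSF2RA and CD36 over SCARB1, where each point is 1 library and each line the mean of 2. CSF1R over CSF2RA lies at 1.01 in parental DMSO cells and at 2.94 and 2.96 with DAC.

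Genes that work with these receptors were followed on lists, and each count below stands against the share of all tested genes that passed the same comparison. With DAC in parental cells that share was 57.7% (33.6% higher and 24.1% lower), with DAC in resistant cells 11.2%, for resistant against parental cells in DMSO 57.5% (31.3% higher and 26.2% lower), and for the difference of the DAC effects 49.3% (28.4% lower). Of 13 tested genes among 22 other scavenger receptors, 8 rose and 3 fell with DAC in parental cells (57.7% of all genes passed), with a median log2 fold change of 0.38 against 0.06 over all genes. STAB1 (2.53), SCARF1 (1.77) and CLEC7A (1.54) met the narrower call, and STAB1, an endocytic receptor of alternatively activated macrophages, went from 0.0279 to 4.94 FPKM. STAB1 and CLEC7A, the beta-glucan receptor, were near 0 in DMSO. They, CXCL16 and CD209 entered the test only through the parental DAC group, in which these 4 of the 13 are high. Without them, a choice made here and for the lists below after seeing the data, 4 of 9 rose and 3 fell, and the median turned to -0.07.

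The list of other macrophage surface receptors also holds the enzyme HMOX1. On this list, 12 of 17 tested genes rose and 3 fell with DAC in parental cells (33.6% and 24.1% of all genes), with a median of 1.19. Of these 17, 5 (CD86, ADGRE1, VSIG4, CD80 and MERTK) were under 1 FPKM in the other 6 libraries and entered the test only through the parental DAC group, in which they are high. Without these 5, 7 of 12 rose and 3 fell, with a median of 0.58. The 4 largest rises were those of SIGLEC1 (3.99), HMOX1 (3.08), CD86 (3.0) and ADGRE1 (2.60). SIGLEC1 is the sialic acid receptor CD169, and HMOX1 is the enzyme that degrades the heme brought in through CD163. CCR2, the chemokine receptor of classical monocytes, fell by 1.41 from 61.5 to 22.5 FPKM. In resistant cells 1 of the 17 rose and 1 fell with DAC, a share near the 11.2% of all genes. The DAC effects differed for 14 of the 17 (49.3% of all genes), 12 of them with a lower effect in resistant cells (28.4%). Without the 5 genes that entered only through parental DAC cells it was 9 of 12, of which 7 had a lower effect.

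CD14 hands its ligand to TLR4 and LY96 (MD-2). The list of the lipopolysaccharide receptor complex is wider than the complex itself, and also holds related receptor genes and signalling genes. Of its 10 tested genes, 6 rose and 3 fell with DAC in parental cells (median 0.18, with 57.7% of all genes passing). Those that fell were LY86 (-0.91), CD180 (-0.24) and IRAK4 (-0.19). None passed in resistant cells (11.2% of all genes). LY96 rose by 2.93, from 0.805 to 12.8 FPKM, and the adaptor MYD88 rose by 1.66. In resistant against parental DMSO cells 3 were higher and 4 lower (57.5% of all genes passed), with TIRAP (-1.47) and TLR4 (-1.32) in the narrower call, and the TLR4 level was 2.50 FPKM in parental and 0.407 FPKM in resistant cells.

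Of 15 tested genes of lipid uptake and efflux, 9 rose and 3 fell with DAC in parental cells (median 0.29, with 57.7% of all genes passing), and 1 of the 15, THBS1, entered the test only through that group. APOE (1.98) and PLIN2 (1.23), which coats lipid droplets, met the narrower call. In resistant DMSO cells 6 were higher and 5 lower than in parental cells (57.5% of all genes passed), and APOE (2.65), RXRA (1.37) and PPARG (1.23) met the narrower call. PPARG, a nuclear receptor known to drive CD36 transcription in macrophages, was at 0.851 FPKM in parental DMSO cells, 0.554 with DAC, 3.35 in resistant DMSO cells and 4.13 with DAC.

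Of 12 tested colony-stimulating factor ligands and partners, 6 rose and 3 fell with DAC in parental cells (median 0.16, with 57.7% of all genes passing), and none met the narrower call. Between resistant and parental cells in DMSO all 12 passed, 4 higher and 8 lower (57.5% of all genes, 31.3% and 26.2%). FLT3 (1.09) and GRB2 (1.06) were higher, and the receptors KIT (-1.24) and CSF3R (-1.23) were lower, as CSF1R and CSF2RA were. In resistant cells only GRB2 passed with DAC. All 6 genes on the list of receptor shedding rose with DAC in parental cells (median 0.48, with 33.6% of all genes rising), none by the narrower call. ADAM17, the protease known to release CD163 from the surface, rose by 0.28 and TIMP3 by 0.16. TIMP3 was 1.47 higher in resistant DMSO cells. The list does not sort genes that further shedding from genes that restrain it, and shedding itself was not measured.

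Of 14 tested myeloid transcription factors, 11 rose and 3 fell with DAC in parental cells (median 0.58, with 33.6% of all genes rising and 24.1% falling). Among those in the narrower call were CEBPE (2.53), EGR1 (1.73) and MAF (1.39). MAF and EGR2 entered the test only through the parental DAC group, in which they are high, and without them 9 of 12 rose and 3 fell (median 0.43). MAF is a macrophage regulator, and CEBPE acts in granulocyte maturation. In resistant DMSO cells EGR1 (2.31) was higher than in parental cells, and in resistant cells 1 of the 14, CEBPB, passed with DAC. SPI1, which encodes PU.1, was at 102 FPKM in parental DMSO cells, 127 with DAC, 69.9 in resistant DMSO cells and 74.4 with DAC.

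**Figure D4:**
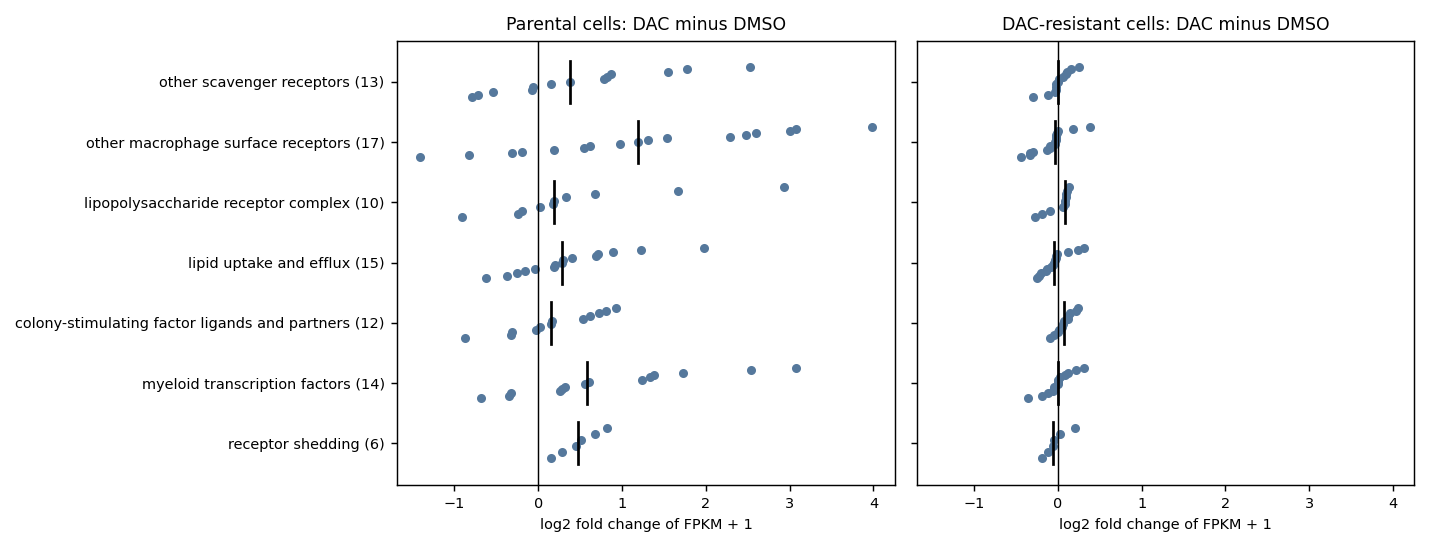
Log2 fold change of FPKM + 1 with DAC (x axis) for each tested gene (points) of 7 lists (y axis, with the number of tested genes in brackets) in parental cells (left) and resistant cells (right), where the black bar is the list's median. In parental cells SIGLEC1 reaches 3.99, and in resistant cells no gene of these lists met the narrower call.

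The genes whose levels were most like those of a receptor were found by Pearson's r of log2(FPKM + 1) over the 8 libraries, among genes with an SD of at least 0.5. This is a description only, since the 8 values fall into 4 pairs of replicates. For CD14 these were MPEG1 (r = 0.9981), a pore-forming protein of macrophages, PARP12 (0.9979) and GCNA (0.9976). For CD36 they were AXL (r = 0.999), the receptor tyrosine kinase that clears apoptotic cells, DNAH8 (0.9989) and LAMB2 (0.9986). For CSF2RA they were TRAF3IP3 (r = 0.9943), PSMG3-AS1 (0.9937) and CDH2 (0.993). For CD68 the values were lower, with ENSG00000274011 (0.9142), MIR3176 (0.9125) and ENSG00000211697 (0.9032).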

How the data were processed

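Libraries were made with an mRNA kit from total RNA. Per the labels and the methods of the study, reads were trimmed with cutadapt 1.9.1, aligned to hg38 with HISAT2 2.1.0 and counted with HTSeq 0.13.5 on Ensembl genes. The authors deposited FPKM values multiplied by 1000, and they were divided by 1000 here. The narrower call uses the thresholds of the volcano plots of the study, whose methods name a test on raw counts for dsRNA transcripts. The deposited unit needed another test. Whole reads were recovered from the steps of the values with exon lengths of GENCODE 44 (87.1% of values whole within 0.02 of a read, 99.57% of genes solved with a search of lengths). They came to 104.03% to 104.48% of the totals used for scaling. They served for depth, counting intervals and a voom alternative.

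For the tests, limma 3.58.1 (R 4.3.3) with its trend option fitted 4 group means to log2(FPKM + 1), and this was tested on simulated data. With 2 libraries per group, p-values rest on the spread shared across genes (4 residual and 2.5 prior degrees of freedom). The labels call the replicates biological and say no more of their source, so p-values measure the spread between these samples. Replicates differed by more than sampling noise (chi-square per gene 4.09 to 4.39). The receptors and lists were chosen with earlier results of these data known. Genes named from the lists met the narrower call, up to the 4 largest per direction, some list genes are not reported here, and other genes named were chosen after their values were seen. Alternatives were another pseudocount, 2 other filters, 3 other scalings, a replicate block, only the libraries compared, voom, the narrower call, and leaving out each replicate. Lists were also counted without genes that entered the test only through the parental DAC group, an alternative chosen after seeing the data.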

Additional observations from a re-analysis of the deposited data

Results flagged for a closer look

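The DAC effect differed between resistant and parental cells for 5 of the 6 tested receptors by the test of that difference (limma, Benjamini-Hochberg over all tested genes, where 49.3% of genes passed). CD68 is among the 5 and entered the test only with the parental DAC libraries, in which it is high. Without CD68 the count was 4 of 5. On the log2 scale, the effect in resistant cells minus that in parental cells was -2.89 for CD14 (adjusted p = 5.2e-05), -1.63 for CD36 (2e-05), -1.18 for CD68 (0.0105), -0.99 for CSF1R (6.16e-05) and 0.99 for CSF2RA (0.000207). All 4 contrasts with a negative value hold a receptor that rose in parental cells, and CSF2RA fell in parental cells and rose in resistant cells. For CD14, CD36, CSF1R and CSF2RA the adjusted p stayed under 0.05 in every alternative fit that gave a value. For CD68 the difference ran from -2.721 to -0.947 over the alternatives. It remains a description only, since alternatives that keep the filter share its entry through the parental DAC libraries. By the narrower call, CSF1R and CSF2RA did not pass.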

How the results depend on the processing

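Of the tested receptors' fold changes, 372 values under alternative settings kept their direction and their side of the threshold, 22 lost the call, 2 gained it and 2 reversed. For the 4 receptors under the filter these were 218 kept, 12 gained and 6 reversed, against the fit without the filter. By the narrower call 2, 0, 1 and 3 receptors were counted for DAC in parental cells, DAC in resistant cells, resistant against parental cells and the difference, in place of 6, 2, 4 and 5. For DAC in resistant cells 1 receptor passed after rescaling to TPM, 0 with only the 4 libraries compared, and 0 to 2 on leaving out single replicates. Reversals were small, apart from that of MARCO with voom. On leaving out single replicates, DAC in resistant cells ran from -0.023 (without resistant DAC replicate 2) to 0.343 for CD14, and from -0.112 to 0.016 (without resistant DMSO replicate 2) for CD36. It ran from -0.021 (without resistant DMSO replicate 2) to 0.065 for MARCO, and from -0.007 (without resistant DAC replicate 2) to 0.014 for MSR1. MSR1 was -0.002 without resistant DMSO replicate 1 and -0.003 under quantile normalization. In DMSO, CD163 ran from -0.004 (without parental DMSO replicate 1) to 0.052. The difference of the DAC effects of MARCO was -0.143 in the fit without the filter and 0.4 with voom, and passed in neither. Over all genes, 5181, 5161 and 4732 passed with a mean of at least 5 FPKM (fewer genes tested) in place of 8593, 8574 and 7350 for DAC in parental cells, resistant against parental cells and the difference. For DAC in resistant cells 831 passed with no filter, 434 with only the 4 libraries, 2906 with voom and 440 to 616 without single resistant replicates, in place of 1673, and the cause was not tested. Quantile normalization moved the median of all genes for DAC in parental cells from 0.057 to -0.053.

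The shared replicate numbers did not pair the samples: deviations of same-numbered samples correlated between -0.022 and 0.020. With the replicate number as a block, 6, 2, 4 and 5 receptors passed, as without it, and no call of a tested receptor changed. Among the receptors under the filter, MARCO gained the call with the block for resistant against parental cells in DMSO (-0.274, limma adjusted p = 0.045).

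Depth limits CD163, MSR1, MRC1 and MARCO, whose reads per library ran from 0 to 119.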
